A study of Homo sapiens with 24 samples.

Results

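The NY-ESO, SSX, GAGE and PAGE antigens are 10 genes of the X chromosome, CTAG1B, CTAG2, SSX1, SSX2, SSX4, XAGE1B, GAGE1, PAGE2, PAGE5 and CSAG1, chosen by name from the 58735 annotated genes in the count tables. All 10 names matched a gene identifier. The counts come from poly(A) RNA-seq of HCT116, a colorectal cancer cell line, in which an auxin-inducible degron (AID) tag had been placed on UHRF1 (UHRF1-AID), on DNMT1 (DNMT1-AID) or on both (UHRF1-AID/DNMT1-AID, the compound line). WT cells carried OsTIR1, the doxycycline-inducible receptor that the degron needs, without a tagged gene. Each of the 4 lines was sampled at day 0, before auxin, and after 4 days of auxin, with 3 libraries in each of the 8 groups. The protocol gives all cells 2 µg/mL doxycycline with 20 µM auxinole, a TIR1 blocker, for a day, and then 2 µg/mL doxycycline with 500 µM auxin. The study made each tagged line as 3 different clones, and the labels do not say which library came from which clone.

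Cancer-testis antigens are proteins made mainly in the germ cells of the testis, silent in most adult tissues and present again in some tumours, where T cells can recognise them. The promoters of many of them carry DNA methylation in somatic cells. UHRF1 binds hemimethylated CpGs behind the replication fork and brings DNMT1, the enzyme that copies the methylation to the new strand. CTAG1B encodes NY-ESO-1 and CTAG2 encodes the related LAGE-1. The SSX genes encode nuclear proteins with a repressor domain, and SSX1, SSX2 and SSX4 are fused to SS18 in synovial sarcoma. GAGE1, PAGE2, PAGE5 and XAGE1B belong to the GAGE, PAGE and XAGE families of small, acidic, X-linked proteins. CSAG1 is a chondrosarcoma-associated antigen gene.

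Counts assigned to genes ranged from 15824804 to 25073821 per library. The file headers name 2 alignment directories. One covers the 12 day 0 libraries and UHRF1-AID at day 4, and the other covers WT, DNMT1-AID and UHRF1-AID/DNMT1-AID at day 4. The 9 libraries of the second also hold 92 spike-in rows, with 0.891% to 1.65% of the counts. UHRF1-AID at day 4 was therefore compared with the other day 4 groups across directories, and directory and line cannot be told apart there. UHRF1 RNA was 148 to 197 CPM (counts scaled to library size) in UHRF1-AID and 50.5 to 89.2 CPM in WT at day 0, and DNMT1 RNA was 29.0 to 74.0 CPM in DNMT1-AID cells and 76.9 to 179.9 CPM in WT. A degron acts on the protein, so these RNA levels do not check the labels. Of 8 colon epithelial markers, VIL1 and CEACAM5 stayed at or under 10 counts in every library, and KRT8 led the list with up to 3245 CPM. KRT20 averaged 4.37 CPM in WT at day 4, 10.9 in UHRF1-AID, 25.6 in the DNMT1-AID line and 21.9 in the compound line, and CDX2 averaged 21.3, 41.0, 24.9 and 52.7 CPM in the same order. Of 7 germ cell markers, PRM1, PRM2, TNP2 and ZPBP were at 0 in all 24 libraries, and DDX4, TNP1 and ACR had counts. The list summed to 0 to 0.601 CPM in WT at day 4, 0.0487 to 0.325 in UHRF1-AID, 0.176 to 0.423 in the DNMT1-AID line and 0.369 to 1.49 in the compound line. DDX4 averaged 0 CPM in WT and DNMT1-AID at day 4, 0.149 in UHRF1-AID and 0.709 in the compound line. Of 5 melanocyte markers TYR was at 0 in every library, and the list, nearly all of it PMEL, summed to 8.49 to 13.3 CPM in WT and 13.5 to 22.2 CPM in the tagged lines at day 4. The part of these markers in the results was not tested. Of 6 trophoblast markers CGA and PSG1 were at 0 in every library and all 6 stayed at or under 10 counts, with a sum of at most 0.464 CPM. In bulk RNA, more cells with a transcript and more transcript per cell cannot be told apart.

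The promoter windows of the members are shown first, since CpGs are the sites that maintenance methylation acts on. RefSeq (GRCh38.p14) gave a window of 250 bases before to 50 after the start for 8 of the 10 members. Those not matched were CTAG1B and CTAG2. The stretches below are the parts upstream of, or outside, the exons in the count tables, for 5 members that were called higher in the compound line at day 4. They are written 5′ to 3′ along the gene's strand, with CpGs in capitals. SSX1, GAGE1, PAGE2 and PAGE5 are on the plus strand and CSAG1 is on the minus strand.
SSX1, chrX:48255142-48255316: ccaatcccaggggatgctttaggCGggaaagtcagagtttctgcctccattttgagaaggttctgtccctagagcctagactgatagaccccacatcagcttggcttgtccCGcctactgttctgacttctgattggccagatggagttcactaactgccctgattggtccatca
GAGE1, chrX:49598763-49599012: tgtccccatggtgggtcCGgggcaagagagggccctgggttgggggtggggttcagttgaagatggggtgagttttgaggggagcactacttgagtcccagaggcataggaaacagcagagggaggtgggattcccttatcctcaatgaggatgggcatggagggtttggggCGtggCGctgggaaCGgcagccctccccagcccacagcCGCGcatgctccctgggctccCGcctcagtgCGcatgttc
PAGE2, chrX:55088768-55089007: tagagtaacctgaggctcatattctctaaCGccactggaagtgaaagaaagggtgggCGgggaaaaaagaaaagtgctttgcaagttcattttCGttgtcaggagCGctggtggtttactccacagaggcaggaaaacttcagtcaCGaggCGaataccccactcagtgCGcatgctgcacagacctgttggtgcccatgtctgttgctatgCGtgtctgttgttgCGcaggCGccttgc
PAGE5, chrX:55220096-55220345: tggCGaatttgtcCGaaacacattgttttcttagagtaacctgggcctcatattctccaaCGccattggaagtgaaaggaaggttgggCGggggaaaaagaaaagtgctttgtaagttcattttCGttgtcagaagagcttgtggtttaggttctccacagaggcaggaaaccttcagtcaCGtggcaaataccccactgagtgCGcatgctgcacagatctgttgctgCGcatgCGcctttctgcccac
CSAG1, chrX:152733736-152733778: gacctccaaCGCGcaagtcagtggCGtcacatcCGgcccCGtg

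The 300-base windows held 5 CpGs for SSX1, 8 for SSX2, 10 for PAGE5, 12 for SSX4, 13 for GAGE1, 13 for PAGE2, 15 for XAGE1B and 16 for CSAG1. The median over all 27284 promoters was 13, with quartiles of 3 and 28, so these 8 windows lay between the quartiles. The methylation of these CpGs was not measured in the files used here. For GAGE1, the RefSeq start lay 9517 bp inside the gene as the count tables draw it, and the printed stretch falls between its exons.

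The letters TGCGCATG, read on either strand, occurred in the windows of XAGE1B, GAGE1, PAGE2 and PAGE5, 2 times in those of XAGE1B and PAGE5. This is the core of the sequence bound by NRF1, a factor whose binding is blocked by CpG methylation. Among all 27284 promoters, 2.28% held it. CCAAT, the letters of the box bound by NF-Y, occurred on either strand in SSX1, SSX2, SSX4, PAGE5 and CSAG1, against 35.7% of all promoters. Both motifs were picked after the windows had been read, and they do not overlap each other. Windows were aligned along each gene's own strand only. PAGE2 and PAGE5 were 72.0% identical over their aligned windows and SSX2 and SSX4 were 68.5% identical. The other pairs of members gave 50.6% to 57.1%. For SSX1 these values miss a match, since the end of its printed stretch, read on the opposite strand, recurs nearly unchanged in the SSX2 and SSX4 windows. That shared block holds CCAAT in all of them. Members that share sequence in this way are not independent examples of a motif.

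At day 0 the members were at or near 0 in WT, UHRF1-AID and DNMT1-AID cells. Their counts, summed over the 10 genes, were 0 to 3 per library in WT, 3 to 8 in the DNMT1-AID line, 2 to 10 in the UHRF1-AID line and 14 to 86 in the compound line. SSX1 was the one member seen in all 4 lines at day 0, with 0, 1 and 3 counts in the WT libraries and 3, 8 and 2 in the UHRF1-AID libraries. None of the 10 had enough counts to be tested in any line against WT at day 0, and none was called. DESeq2 called CSAG1 in the compound line, where it called 0.918% of all genes, and no member in the other lines. Over all genes tested, 0% were called higher in DNMT1-AID, also 0% in UHRF1-AID cells, and 0.656% in the compound line, where a call is an edgeR quasi-likelihood adjusted p under 0.05 with a change of more than 1 on the log2 scale.

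The compound line was the exception at day 0. CSAG1 had 6, 10 and 21 counts in its libraries and 0, 1 and 0 in WT, and without the filter on low counts it was called higher (edgeR adjusted p = 0.00381, where 0.54% of all genes were). CTAG2 had 14, 0 and 51 counts there and 0 in every WT library. The CTAG2 counts of the compound line overlapped WT through the library at 0, and without the filter its adjusted p was 0.619. Replicate 3 of the compound line held the most, with 86 counts over 6 members.

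After 4 days of auxin, WT cells remained at 0 for CTAG1B, CTAG2, SSX2, SSX4, XAGE1B, GAGE1, PAGE2 and PAGE5. SSX1 had 1 count in a single WT library and CSAG1 had 3. Against WT at day 0, none of the 10 had enough counts to be tested, DESeq2 called 0 of them and 4.8% of all genes, and by edgeR 5.37% of all genes tested were called higher. The auxin treatment of untagged cells left no member with more than 3 counts in a library.

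CTAG2 reached the highest counts. It had 709, 1027 and 889 counts in UHRF1-AID, 10, 25 and 19 in DNMT1-AID cells, and 1083, 1172 and 1351 in the compound line at day 4. All 9 libraries lay above the WT libraries, and the DNMT1-AID libraries lay under both other lines. Taking 3 counts over the group as the floor for WT, UHRF1-AID was at least 702-fold higher (edgeR adjusted p = 1.37e-05) and UHRF1-AID/DNMT1-AID at least 1204-fold higher (adjusted p = 1.83e-15). CTAG2 made up 69.1% to 74.6% of the members' counts in UHRF1-AID libraries, 48.8% to 51.4% in the compound line and 23.8% to 34.5% in DNMT1-AID. Its partner CTAG1B had 0, 1 and 0 counts in UHRF1-AID and 3, 2 and 6 in the compound line, and was not tested.

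SSX1 had 33, 108 and 63 counts in UHRF1-AID, 7, 25 and 9 in DNMT1-AID cells and 135, 161 and 187 in the compound line at day 4. The 3 tagged lines did not overlap, and the compound line was the highest. Relative to WT the log2 change was 6.96 ± 0.90 (SE, 3 against 3 libraries; adjusted p = 0.00130) for UHRF1-AID and 8.47 ± 0.47 (adjusted p = 1.30e-11) for the compound line. With a single WT count, the CPM ratio of UHRF1-AID to WT was 164, with a 95% exact counting interval of 29.0 to 6495. SSX2 reached 3 counts and SSX4 reached 2 in any library, so neither was tested.

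PAGE2 had 47, 94 and 90 counts in UHRF1-AID, 9, 2 and 13 in DNMT1-AID cells and 394, 423 and 427 in the compound line, which was at least 415-fold above WT (adjusted p = 9.71e-14). UHRF1-AID was at least 61.8-fold above WT (adjusted p = 0.000666). PAGE5 followed the same order, with 76, 132 and 112 counts in UHRF1-AID, 6, 11 and 5 in DNMT1-AID cells and 314, 354 and 296 in the compound line. Its bounds against WT were at least 85.6-fold (adjusted p = 0.000266) and at least 322-fold (adjusted p = 6.01e-13). In both PAGE genes the 3 lines did not overlap.

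GAGE1 had 6, 21 and 13 counts in UHRF1-AID, 0 in all DNMT1-AID libraries and 32, 31 and 49 in the compound line. The compound line was at least 37.4-fold above WT (adjusted p = 5.72e-07), while the UHRF1-AID counts fell short of the filter and were not tested. XAGE1B had 1, 3 and 4 counts in UHRF1-AID, 0 in DNMT1-AID cells and 8, 13 and 14 in the compound line, and was not tested in either.

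CSAG1 had 76, 100 and 102 counts in UHRF1-AID, 10, 14 and 9 in DNMT1-AID cells and 245, 216 and 296 in the compound line. It was also the member with the clearest counts in the compound line before auxin. The log2 change against WT was 6.06 ± 0.63 (SE; adjusted p = 0.000301) for UHRF1-AID and 7.83 ± 0.41 (adjusted p = 2.10e-11) for the compound line.

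Of the 10 members, 5 were called higher in UHRF1-AID than in WT at day 4 (CTAG2, SSX1, PAGE2, PAGE5 and CSAG1), where 5.77% of all genes tested were. In the compound line 6 were called, with GAGE1 added, where 9.21% of all genes were. The others were not tested, and no member was called lower in any comparison. With 0 to 3 counts per WT library, the tested members passed the filter through their counts in the tagged line. Being tested thus nearly fixed the call. The shares of all genes are over genes tested, while the 10 members include untested ones. The median log2 change over all genes tested was 0.03 in UHRF1-AID and 0.02 in the compound line.

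DNMT1-AID cells gave low counts that the filter removed. None of the 10 was tested against WT at day 4, where 2.29% of all genes tested were called higher. Without the filter, 5 were called (CTAG2, SSX1, PAGE2, PAGE5 and CSAG1), where 2.06% of all genes were, with edgeR adjusted p from 1.06e-07 for CTAG2 to 0.00884 for CSAG1. DESeq2 called 4 of them, all but CSAG1, where it called 2.31% of all genes. The CTAG2 level was at least 18.0-fold above WT by the floor, PAGE2 at least 7.99-fold and PAGE5 at least 7.32-fold. For SSX1 the CPM ratio to WT was 41.0 (95% counting interval 6.95 to 1656) and for CSAG1 it was 11.0 (3.45 to 56.0). CTAG1B, SSX2, SSX4, XAGE1B and GAGE1 were at 0 in all 3 DNMT1-AID libraries.

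Day 4 was also compared with day 0 within each line. In UHRF1-AID, 5 members were called higher at day 4, where 12.1% of all genes were, and CTAG2 was at least 921-fold above its day 0 level (edgeR adjusted p = 5.80e-06). In this line both days lie in one alignment directory, while in WT, DNMT1-AID and the compound line day and directory cannot be told apart. In UHRF1-AID/DNMT1-AID 6 were called, where 15.1% of all genes were, with log2 changes of 4.88 ± 0.27 (SE) for CSAG1 to 8.67 ± 0.35 for PAGE5 and 8.67 ± 0.33 for PAGE2. In DNMT1-AID, CTAG2 (log2 change 4.80 ± 0.85, adjusted p = 0.00145) and CSAG1 (4.09 ± 0.76, adjusted p = 0.00188) were called, where 8.62% of all genes were. Without the filter SSX1, PAGE2 and PAGE5 joined them, where 5.79% of all genes were, and DESeq2 called the same 5, where it called 8.13% of all genes.

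UHRF1-AID and DNMT1-AID cells were then compared directly at day 4. CTAG2 was higher in UHRF1-AID by 5.25 ± 0.31 on the log2 scale (SE; edgeR adjusted p = 6.75e-05), PAGE5 by 3.50 ± 0.40 (adjusted p = 0.00169), PAGE2 by 2.90 ± 0.52 (adjusted p = 0.00915) and CSAG1 by 2.71 ± 0.32 (adjusted p = 0.00180). These 4 of the 10 members were called, where 2.88% of all genes were. For SSX1 the difference was 1.98 ± 0.58 with an adjusted p of 0.0518, although its groups did not overlap. This comparison crosses the alignment directories.

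The compound line lay above UHRF1-AID for CTAG2, SSX1, GAGE1, PAGE2, PAGE5 and CSAG1, and no library of one line overlapped the other. The share of all genes without overlap was not counted, so this separation cannot be set against it. PAGE2 differed most, by 2.78 ± 0.25 on the log2 scale (SE; edgeR adjusted p = 0.000851), followed by PAGE5 with 1.94 ± 0.23 (adjusted p = 0.00141), GAGE1 with 1.82 ± 0.45 (adjusted p = 0.0243), CSAG1 with 1.80 ± 0.20 (adjusted p = 0.00115) and SSX1 with 1.58 ± 0.39 (adjusted p = 0.0268). These 5 were called, where 4.2% of all genes were. CTAG2 differed by 0.81 ± 0.17 (adjusted p = 0.0125), under the fold limit. The calls of SSX1 and GAGE1 were lost without UHRF1-AID replicate 3 or without any 1 of the 3 compound libraries, with 3 calls left (PAGE2, PAGE5 and CSAG1). In those fits the log2 difference was 1.46 to 1.69 for SSX1 and 1.59 to 1.92 for GAGE1, about as large as with all libraries, with adjusted p of 0.0629 to 0.103. GAGE1 alone was also lost without UHRF1-AID replicate 1, where its log2 difference was 1.45 (adjusted p = 0.0545). This comparison also crosses the alignment directories. Against DNMT1-AID, within one directory, the same 6 members were called higher in the compound line, where 5.74% of all genes were, from 3.56 ± 0.32 for SSX1 to 6.06 ± 0.19 for CTAG2, with GAGE1 at least 37.4-fold higher.

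The difference between a line's day effect and that of WT could be fitted with a usable error for few members, because most were at 0 in WT on both days. In the compound line SSX1 was called, where 3.46% of all genes were, with a difference of 7.66 ± 1.74 on the log2 scale (SE; edgeR adjusted p = 0.00814). Without WT day 0 replicate 3 it was 6.42 with an adjusted p of 0.114. CSAG1 also had a usable error there and was not called (3.33 ± 2.68, edgeR adjusted p = 0.463). DESeq2 called 4 members there (SSX1, GAGE1, PAGE2 and PAGE5), where it called 4.81% of all genes. In UHRF1-AID the members with a usable error were SSX1 (5.49 ± 1.94, adjusted p = 0.146) and CSAG1 (7.93 ± 3.04, adjusted p = 0.190). Neither was called by edgeR, which called 1.81% of all genes, although both had an unadjusted p under 0.05. DESeq2 called 5 members, where it called 2.74% of all genes. CSAG1 was at 0 in UHRF1-AID at day 0, so the size of its difference is not well set. In DNMT1-AID only CSAG1 had a usable error (SE 2.63, adjusted p = 0.665), so the test says nothing of the other 9. The edgeR share over all genes was 0.132% there, and DESeq2 called 0 members and 0.452% of all genes. Between UHRF1-AID and DNMT1-AID none was called by edgeR, where 0.262% of all genes were. CTAG2 (7.88 ± 2.35, edgeR adjusted p = 0.107) and CSAG1 (5.35 ± 1.58, adjusted p = 0.102) had an unadjusted p under 0.05. SSX1 (1.82 ± 1.09, edgeR adjusted p = 0.407) and PAGE2 (-0.145 ± 0.214, edgeR adjusted p = 0.790) did not. PAGE2 was at 0 in DNMT1-AID at day 0, so its estimate is not well set. Its SE is small because the estimate is small, and does not show equal day effects. CTAG2 and CSAG1 were at 0 in UHRF1-AID at day 0, so the sizes of their differences are not well set either. DESeq2 called CTAG2 alone, where it called 1.09% of all genes. UHRF1-AID has both days in one alignment directory, while WT and DNMT1-AID change directory between days. The differences of the UHRF1-AID day effect from these lines therefore cannot be told apart from directory.

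Levels were compared between genes as RPKM, which scales the counts by exon length in kilobases and by library size, since the exons of the members differ in length from 661 bp for PAGE2 to 3237 bp for GAGE1. In the compound line at day 4 CTAG2 was at 74.3 ± 7.07 RPKM (SD, n = 3), PAGE2 at 38.5 ± 1.95, PAGE5 at 26.6 ± 3.26, CSAG1 at 14.2 ± 1.85, SSX1 at 7.61 ± 1.12 and GAGE1 at 0.705 ± 0.171, and no neighbours in this order overlapped. The GAGE1 level rests on the 3237 bp counted for it, against 528 bp for GAGE2A, and a shorter length would give a higher RPKM. In UHRF1-AID, CTAG2 led with 43.7 ± 10.1 RPKM and stood apart from the rest. Neighbours in the order PAGE5 (7.12 ± 2.21), PAGE2 (5.77 ± 2.08), CSAG1 (4.19 ± 0.736) and SSX1 (2.63 ± 1.61) overlapped there. GAGE1 was at 0.207 ± 0.128, apart from SSX1. In DNMT1-AID the mean RPKM ran from 0.602 for PAGE5 to 1.12 for CTAG2. Neighbours in the order CTAG2, PAGE2, SSX1, CSAG1 and PAGE5 overlapped, and PAGE5 stood apart from the members at 0.

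**Figure D1:**
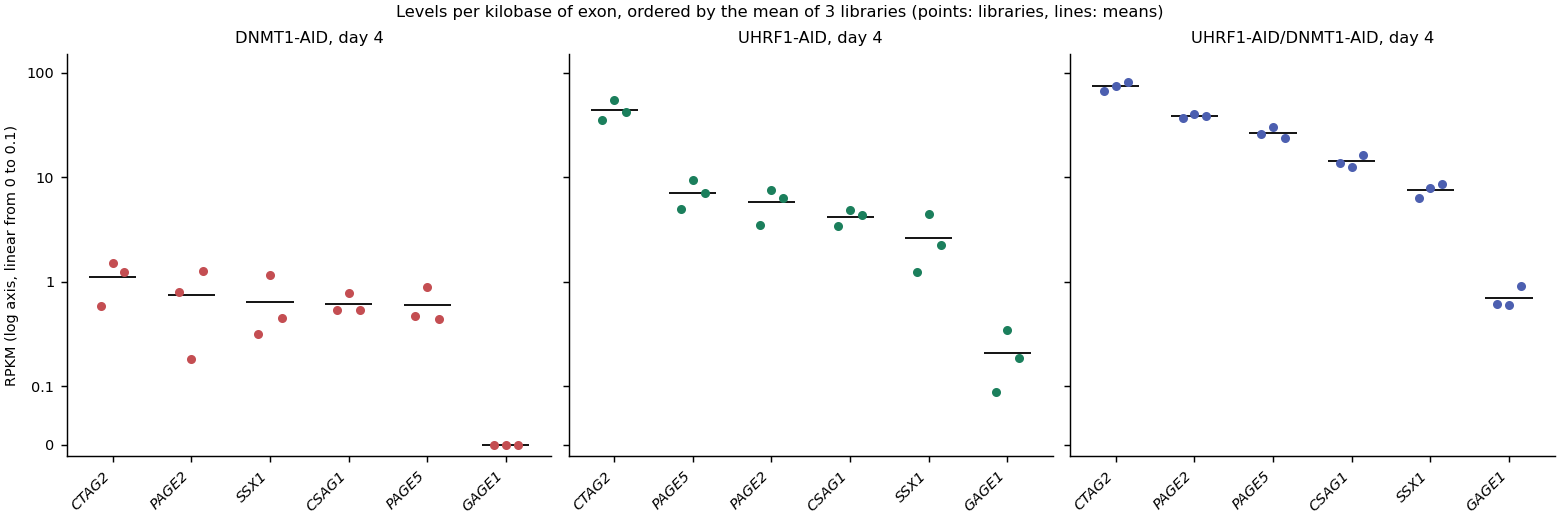
RPKM (vertical axis, log scale above 0.1) of 6 members at day 4 in DNMT1-AID, UHRF1-AID and UHRF1-AID/DNMT1-AID cells, ordered by the mean in each panel, where points are libraries and lines are means of 3. The 6 levels are separate in the compound line, from 74.3 RPKM for CTAG2 to 0.705 for GAGE1. In DNMT1-AID, neighbours among the 5 above 0 overlap. GAGE1 is scaled by 3237 bp, against 528 bp for its relative GAGE2A.

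Libraries of UHRF1-AID at day 4 varied together. Replicate 1 had the lowest and replicate 2 the highest CPM for all 6 of these members, and the highest library exceeded the lowest by 1.43-fold for CSAG1 to 3.80-fold for GAGE1. In the compound line the ratio of the highest to the lowest library was 1.11 for PAGE2 to 1.49 for GAGE1, and the lowest library was replicate 1 for 3 members, replicate 2 for 2 and replicate 3 for 1.

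The sequence that members share with other genes bears on how many reads could be assigned to them. Over windows of 150 bases, the read length, all windows of CTAG1B transcripts and of SSX2 transcripts were also found in transcripts of another gene (100% each), as were 99.7% of SSX4 windows and 72.5% of XAGE1B windows. The other genes were chiefly CTAG1A, SSX2B, SSX4B and XAGE1A. For CTAG2 the share was 9.77%, for GAGE1 9.66%, for PAGE2 4.32%, and for SSX1, PAGE5 and CSAG1 0%. GAGE1 had 3136 windows, 303 of them shared, while GAGE2A had 409 in all, so the GAGE1 share depends on its annotated length. The 4 members with shares of 72.5% or more were the 4 with at most 14 counts in any library. The counts of these 4 are uncertain, since reads that match several genes may have been dropped or split, and the part of that in their low counts was not tested. GAGE1 also shares 75 exon bases, 2.32% of its exons, with GAGE2A.

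Counts were also summed over each member and its copy. CTAG1B and CTAG1A together had 14 counts in UHRF1-AID, 0 in DNMT1-AID cells and 24 in the compound line at day 4, summed over 3 libraries. XAGE1B and XAGE1A had 16, 3 and 79. SSX2 and SSX2B had 2, 0 and 8, and SSX4 and SSX4B had 2, 1 and 4. PAGE2B, the neighbour of PAGE2, shares only 5.20% of its windows and had 62, 43 and 79 counts in UHRF1-AID, 6, 6 and 4 in DNMT1-AID cells and 384, 325 and 375 in the compound line.

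Of 31 further genes of these families in the tables, 21 were at or under 10 counts in all libraries, and 10 of those were at 0 throughout. Against WT at day 4, the filter left 6 of the 31 in the compound line. Of these, 5 were called higher (XAGE1A, PAGE2B, SSX3, GAGE2A and PAGE1), beside 9.21% of all genes tested. In UHRF1-AID it left 3, and 2 were called higher (PAGE2B and PAGE1), beside 5.77%. Those called were at 0 in WT, so they passed the filter through the tagged line alone. In DNMT1-AID the filter left CSAG3 alone, which was not called (log2 change 0.55 ± 0.15, SE; edgeR adjusted p = 0.0312, under the fold limit). Untested there, PAGE1 had 46 counts over the 3 libraries against 0 in WT (at least 15.3-fold), PAGE2B had 16 (at least 5.33-fold) and SSX3 had 12. From day 0 to day 4 in DNMT1-AID, PAGE1 was called higher (adjusted p = 0.00125), beside 8.62% of all genes. SSX3 was at least 104-fold and PAGE1 at least 122-fold above WT in the compound line. CSAG3, a relative of CSAG1, had 178 to 372 counts in every library and group means of 11.4 to 22.1 CPM.

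CSAG1 (chrX:152727484-152733735, minus strand) lies head to head with MAGEA12, another cancer-testis antigen gene (chrX:152733779-152737669, plus strand), and the 43 bases printed above are the gap between them. MAGEA12 averaged 0 CPM in WT, 19.3 in UHRF1-AID, 2.92 in DNMT1-AID cells and 47.9 in the compound line at day 4, and was called higher in the 3 tagged lines. At day 0 it averaged 2.33 CPM in the compound line and 0 in WT, and CSAG1 averaged 0.536 and 0.0171 CPM there. On its other side MAGEA2B, 8877 bp away, stayed between 0.332 and 0.836 CPM in the 8 group means. A gene without a symbol, 967 bp from CTAG2, averaged 0 CPM in WT and 0.758 in the compound line at day 4. Another, 55731 bp from PAGE5, averaged 0 CPM in WT and 2.98 in the compound line. Both were called higher in the compound line against WT, where 9.21% of all genes were. The other members are at chrX:154617609-154619282 (CTAG1B), chrX:154651972-154653579 (CTAG2), chrX:48255317-48267444 (SSX1), chrX:52696896-52707189 (SSX2), chrX:48383516-48393347 (SSX4), chrX:52512077-52520803 (XAGE1B), chrX:49589496-49608536 (GAGE1), chrX:55089008-55092842 (PAGE2) and chrX:55220355-55224108 (PAGE5), in hg38 coordinates.

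The genes most like the leading members in pattern were found by Pearson's r of log2(CPM + 1) over the 24 libraries. The 14207 candidates were genes that passed the filter in the compound line against WT at day 4. A gene silent in WT was thus a candidate only through its counts in the compound line, where the leading members are also high. For CTAG2 they were MAGEA1 (0.993), MAGEA6 (0.990) and GPX3 (0.989). For PAGE2 they were POMC (0.997), CT45A1 (0.993) and ACSS3 (0.992). MAGEA1 and MAGEA6 encode MAGE antigens of the X chromosome, CT45A1 is another X-linked cancer-testis gene, GPX3 encodes a secreted glutathione peroxidase and POMC the precursor of several peptide hormones. At day 4 GPX3 averaged 26.1 CPM in UHRF1-AID, 0.968 in DNMT1-AID cells and 39.8 in the compound line. These points share 8 groups, most of them at 0, so the values describe likeness only.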

How the data were processed

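Poly(A) RNA was sequenced from 24 libraries (8 groups of 3) as 150-base paired reads. Per the labels and the study's methods, the authors used STAR to align trimmed reads to hg38, and the deposited values are whole-number counts per gene from featureCounts. The annotation release, the strand setting and the treatment of reads matching several genes are not given in the sources used here. Symbols were matched through a gene name table for 58207 of 58735 identifiers. The 92 spike-in rows were left out of library sizes. The members and lists were chosen with earlier results of these data known.

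Counts were tested with edgeR 4.0.16 (TMM scaling, robust quasi-likelihood, Benjamini-Hochberg adjustment over all genes tested) in R 4.3.3, in the 2 groups compared, or the 4 groups for a difference of day effects. filterByExpr set the filter on low counts (minimum 10). Called means adjusted p under 0.05 and a log2 change beyond 1. The SE of a log2 change is its size divided by the square root of the test's F statistic, not a separately fitted error. DESeq2 1.42.0, RLE scaling, no filter, all 24 libraries in 1 fit, a replicate block, other thresholds and leaving out each library were the alternatives. CPM used TMM factors over 24 libraries. A group at 0 was set to a floor of 3 counts over its 3 libraries, and ratios have 95% exact intervals. Floors and intervals cover counting error only. Overlap of libraries was looked at for members and family genes only, so no share over all genes stands beside it. Named genes were the 10 members, their copies and family genes, UHRF1 and DNMT1. The 3 genes outside the families with the highest r were named for each of the 2 members with the highest mean CPM. The nearest gene outside these families on each side of each called member was looked at. Those beside CSAG1 are named, and values are given for others called higher. Transcript windows came from GENCODE and promoter windows from RefSeq (GRCh38.p14). The promoter motifs, the comparison of windows and the transcript copies were chosen after the data had been seen. The scripts were tested on simulated data with known changes. Replicates numbered alike deviated together between days, with all 3 correlations over 0.1, in the UHRF1-AID line (0.343, 0.181 and 0.193) and the compound line (0.138, 0.132 and 0.123). Between replicates of a group, chi-square per degree of freedom over genes was 3.52 to 59.2, so no pair agreed within sampling noise. The study describes the 3 libraries of a group as biological replicates.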

Additional observations from a re-analysis of the deposited data

Results flagged for a closer look

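SSX1 was picked out because its change from day 0 to day 4 differed between UHRF1-AID/DNMT1-AID and WT by a test of the difference itself. The difference was 7.66 on the log2 scale (SE 1.74, edgeR adjusted p = 0.00814). SSX1 went from 0, 4 and 5 counts to 135, 161 and 187 in the compound line, and from 0, 1 and 3 to 0, 0 and 1 in WT. Without WT day 0 replicate 3, which held 3 of the 4 WT counts at day 0, the difference was 6.42 (adjusted p = 0.114).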

How the results depend on the processing

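RLE scaling, no minimum fold change and the replicate block kept members called higher within 1.5 times the main number in 17 of 17 comparisons. Each gave 0 to 6 calls and lost 0 calls. With no minimum fold change CTAG2 was added in the compound line against UHRF1-AID at day 4 (log2 change 0.81, edgeR adjusted p = 0.0125). DNMT1-AID against WT at day 4, with 0 calls, gave 5 without the filter on low counts, 4 with all 24 libraries in 1 fit, 4 with DESeq2, and 0 to 1 when each library was left out (CTAG2, without DNMT1-AID replicate 1 or any 1 WT replicate), where fewer libraries let CTAG2 pass the filter. DNMT1-AID from day 0 to day 4, with 2 calls, gave 5 in each of those 3 settings. UHRF1-AID/DNMT1-AID against WT at day 0, with 0 calls, gave 1 (CSAG1) in each of them. UHRF1-AID/DNMT1-AID against UHRF1-AID at day 4, with 5 calls, gave 3 at an adjusted p under 0.01 and 3 to 6 when each library was left out. For differences of day effects, UHRF1-AID against WT (0 calls) gave 1 without the filter and 5 with DESeq2, UHRF1-AID against DNMT1-AID (0 calls) gave 1 without the filter, 1 with DESeq2 and 0 to 2 when each library was left out (2 without DNMT1-AID day 0 replicate 3), and UHRF1-AID/DNMT1-AID against WT (1 call) gave 4 with DESeq2 and 0 to 1 when each library was left out. Shares of all genes called are not given here for the 24-library fit, the unfiltered day effects, the stricter threshold or fits without a library. The member counts in those settings therefore cannot be set against all genes. The causes were not tested. Over 526 alternative values of the called members' log2 changes, 514 kept their call, 12 lost it and 0 reversed. Without the filter, the genes called higher against WT at day 4 rose from 311 to 492 in DNMT1-AID, from 805 to 1375 in UHRF1-AID and from 1309 to 2139 in the compound line. Mean CPM values were also recomputed with RLE scaling and without each library, which was chosen after seeing the data. Members with low counts were left untested by the filter on low counts.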
